A study of Mus musculus with 7 samples.

Results

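The nuclear genes for subunits of the oxidative phosphorylation (OXPHOS) machinery were followed in 7 subcutaneous malignant peripheral nerve sheath tumors (MPNSTs) analyzed by single-cell RNA sequencing. The set comprised every feature whose symbol began with Nduf followed by a, b, c, s or v and a digit, with Uqcr, with Cox4 to Cox8 plus a, b or c, or with Atp5, or equaled Sdha, Sdhb, Sdhc or Sdhd, and this rule selected 86 of 33696 features without using any measured value. They fell into 38 genes of complex I, 4 of complex II, 8 of complex III, 19 of complex IV (counting Ndufa4 and Ndufa4l2, which are now placed there) and 17 of complex V. All 86 had at least 1 unique molecular identifier (UMI, a tag that counts 1 captured transcript) in the cells used, but Cox8b with 8, Cox8c with 2 and Ndufb11b with 1 were too sparse to compare. Cox5b-ps, Ndufb4b and Ndufb11b resemble other genes of the set closely enough that reads could be split between copies, so their values are uncertain.

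The respiratory chain lies in the inner mitochondrial membrane. Complexes I and II pass electrons from NADH and succinate to ubiquinone, complex III hands them to cytochrome c, and complex IV (cytochrome c oxidase) passes them to oxygen, while complexes I, III and IV pump the protons whose return drives ATP synthesis in complex V. Most subunits are encoded in the nucleus and a smaller group, written mt-, in the mitochondrial genome. Several complex IV subunits exist as a broadly used form and a form restricted to muscle, lung, testis or other tissues.

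Each tumor grew from JW23.3 cells, a murine MPNST line with engineered gene knockouts that include Nf1, placed under the flank skin of female C57/B6 wild-type mice 5 to 6 weeks old. The hosts were immunocompetent, and all groups share the single tumor line. Mice were randomized by tumor size on day 7 into irradiated animals (5 daily fractions of 2 Gy focused on the tumor, n = 4) and untreated controls (n = 3), and every tumor was collected on day 21 and run as 1 10x Genomics 3′ library.

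The libraries held 2859 to 8452 cells and 53496570 to 153044123 UMIs each. By cell number and depth the tumors were split into 2 sets, called technical sets here (irradiated 1, control 2 and control 3 in one, the others in the other). The labels name no batch, and the split was little better than the next best (within-set share of the spread 0.396 against 0.422). Differences within the sets rest on 1 irradiated tumor in the first and 1 control tumor in the other. The first set holds 1 of 4 irradiated and 2 of 3 control tumors, so set and treatment are partly confounded. Pairs of libraries had at most 19 cell barcodes in common. Of 39537 cells, 34297 passed filters and 27835 met the marker gate of exactly 1 class. The classes were MPNST-like (14402 cells, no UMI of Xist, since the hosts were female), macrophage-like (11192), T/NK-like (1319), dendritic-like (143), pericyte-like (146), fibroblast-like (187) and endothelial-like (446). No doublet caller was run, and 918 cells that carried both tumor and macrophage markers were left out. At the gates, 1192 MPNST-like, 669 macrophage-like and 131 T/NK-like cells had the minimum number of markers. The summed T/NK marker list reached 5920 CPM (UMIs per 1000000 UMIs of the class) in T/NK-like cells and 2.34 in macrophage-like cells, while the macrophage list reached 170.1 to 489.1 CPM in T/NK-like cells and the MPNST list 31.6 to 96.9 in macrophage-like cells. The part of such foreign RNA in the results was not tested.

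The 86 genes together made up a similar slice of the transcriptome in tumor cells and macrophages and a smaller one in lymphocytes and fibroblasts. The lowest, median and highest tumor had 11512, 13586 and 14924 CPM in MPNST-like cells, and 13509, 14461 and 14532 in macrophage-like cells. For T/NK-like cells the corresponding values were 9420, 10770 and 11702. MPNST-like and macrophage-like ranges overlapped, whereas only 1 MPNST-like value, 11512, lay within the T/NK-like range. Among classes with fewer cells, the mean was 12110 ± 1113 in endothelial-like cells (SD, n = 6), 12696 ± 903 in pericyte-like cells (n = 4), 12164 ± 353 in dendritic-like cells (n = 3) and 9032 ± 539 in fibroblast-like cells (n = 3). Complex I and complex V contributed most of these transcripts, with means of 4236 and 4319 CPM in MPNST-like cells, against 3216 for complex IV, 1241 for complex III and 231 for complex II.

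**Figure D1:**
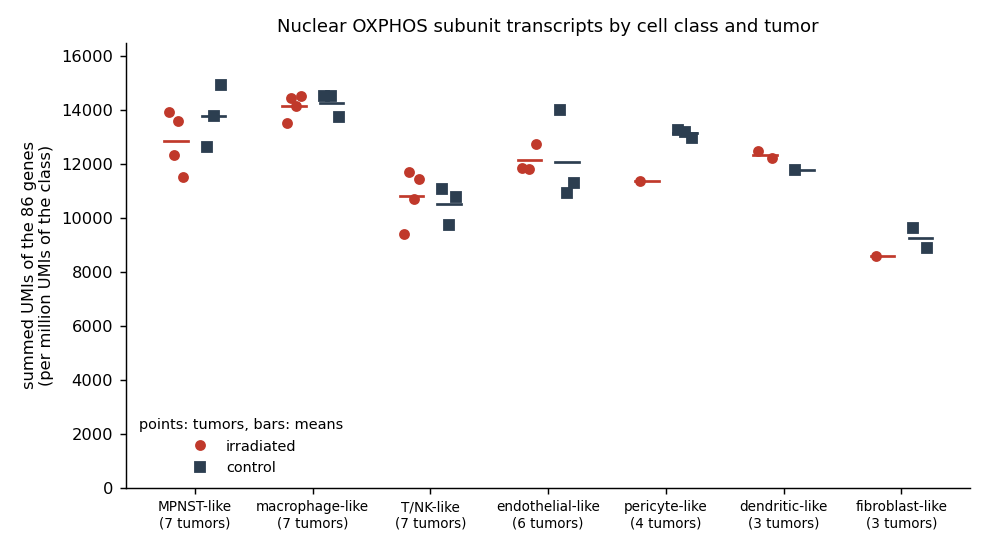
Summed CPM of the 86 genes in each cell class (linear axis from 0), with 1 point per tumor (circles irradiated, squares control) and bars at group means. Macrophage-like values lie between 13509 and 14532, T/NK-like values between 9420 and 11702, and the fibroblast-like mean of 9032 is the lowest of the 7 class means, with its range overlapping the T/NK-like one.

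Within this shared total, single subunits differed strongly between tumor cells and macrophages. Between macrophage-like and MPNST-like cells of the same tumor, edgeR (quasi-likelihood test, Benjamini-Hochberg adjusted p below 0.05) called 64 of the 82 genes tested higher and 8 lower, with a median log2 fold change of 0.60. Across all 15048 genes tested, 41.2% were called higher and 43.5% lower, with a median of -0.05. These log2 values use trimmed-mean (TMM) scaling. With scaling by total UMIs, 37 of the genes were called higher and 19 lower and the median was 0.12, while the median over all genes moved to -0.53 and the calls over all genes from 6197 higher and 6550 lower to 4451 and 8640. Relative to the median of all genes, the OXPHOS median was higher by 0.65 under both scalings. A change of scaling shifts all genes almost equally, so this equality follows from the method and is not separate support.

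In complex I, 26 of 37 genes tested were higher in macrophage-like cells and 4 lower. Ndufs6, a small subunit of the electron-input arm, had 17.7, 23.7 and 36.7 CPM (lowest, median, highest tumor) in MPNST-like cells and 70.8, 76.6 and 86.8 in macrophage-like cells, with no overlap between the classes. Its log2 fold change was 2.23 ± 0.16 (SE, edgeR adjusted p = 1.3e-07, n = 7). Ndufc2, a membrane-arm subunit, followed with 1.32 ± 0.08. The 4 genes called lower were Ndufs1 (-0.42), Ndufc1 (-0.34), Ndufa5 (-0.33) and Ndufs4 (-0.27). Ndufs1 encodes the largest subunit and carries iron-sulfur clusters, and its level was 42.0 to 52.8 CPM in MPNST-like cells and 20.5 to 29.6 in macrophage-like cells.

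All 4 subunits of complex II, the succinate dehydrogenase that also serves the citric acid cycle, were higher in macrophage-like cells. The membrane anchor Sdhd rose by a log2 value of 1.37 ± 0.13, from 24.4 to 44.4 CPM across MPNST-like samples to 54.4 to 69.3 across macrophage-like samples. Sdhb, the iron-sulfur subunit, differed by 1.05 ± 0.09, the flavoprotein Sdha by 0.75 ± 0.07 and the second anchor Sdhc by 0.45 ± 0.09. With scaling by total UMIs the value of Sdhc was -0.03. In complex III all 8 genes were higher, led by Uqcrfs1, the Rieske iron-sulfur protein (1.24 ± 0.13), and by Uqcrq (1.21 ± 0.10). In complex V, 14 of 17 genes were higher and only Atp5j2 was lower (-0.23). The small F1 subunit Atp5e had 298 to 374 CPM in MPNST-like cells and 542 to 693 in macrophage-like cells (log2 1.37 ± 0.09), and Atp5l, at 1.15 ± 0.09, was the next. Atp5g1, called higher at 0.46 ± 0.12, stood at -0.01 with scaling by total UMIs.

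Complex IV held the widest range, with 12 of 16 genes higher and 3 lower. The subunit Cox5a had 116 to 242 CPM in MPNST-like cells and 348 to 475 in macrophage-like cells, a log2 difference of 1.83 ± 0.13. Cox6b1, at the interface of the dimer, differed by 1.46 ± 0.11. Cox6c went the other way, from 626 to 817 CPM in MPNST-like cells down to 375 to 419.8 in macrophage-like cells (log2 -0.39). Cox7b, at 0.10 ± 0.09, did not pass (edgeR adjusted p = 0.318) and turned to -0.38 with scaling by total UMIs.

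**Figure D2:**
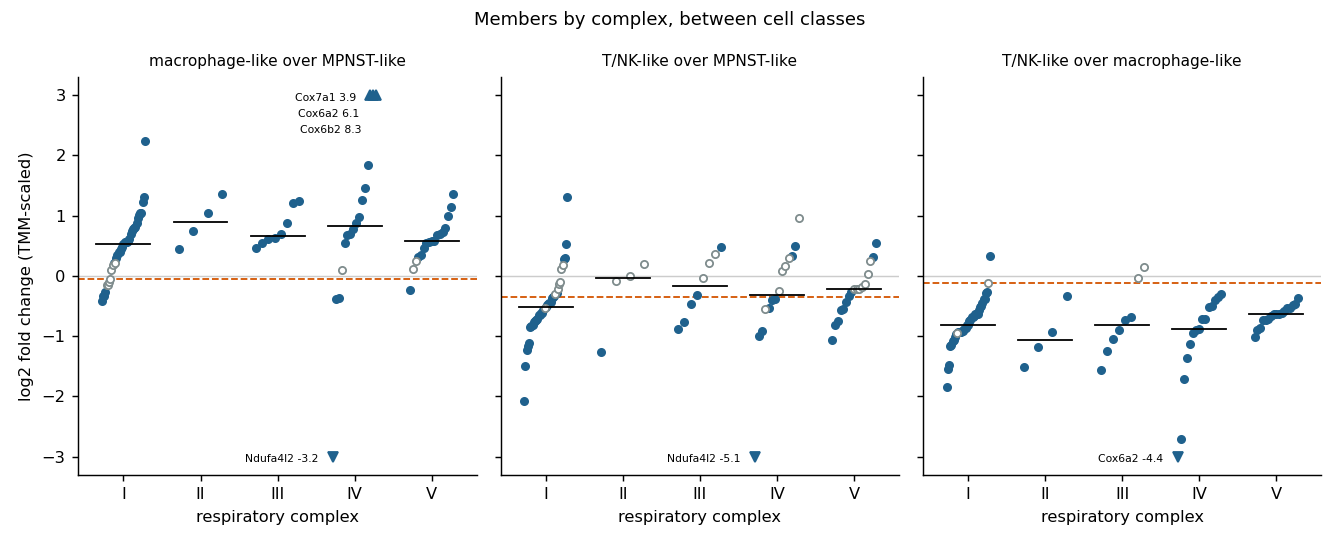
Log2 fold changes (TMM scaling) of the genes tested in each complex for the 3 contrasts between classes, each point a gene, filled where the adjusted p is below 0.05 and open otherwise. Black bars mark complex medians, the dashed line the median of all genes tested, and triangles genes beyond the axis with their values printed. Most genes of every complex lie above the dashed line in the left panel and below it in the right panel.

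Lymphocytes had lower OXPHOS transcripts than macrophages for nearly every subunit. Between T/NK-like and macrophage-like cells, 76 of 81 genes were called lower by edgeR and 1 higher, where 39.5% of all 11972 genes were lower and 32.1% higher. The median log2 fold change was -0.73, against -0.11 over all genes. Scaling by total UMIs gave 64 lower, 3 higher and a median of -0.46 against 0.16 over all genes, and it moved the calls over all genes from 3847 higher and 4731 lower to 4829 and 3691. The difference from the all-gene median was -0.61 in both cases, an equality that again follows from the method. Ndufc2 (-1.85 ± 0.09) and Ndufc1 (-1.54 ± 0.11) of complex I, Sdhc (-1.51 ± 0.14) and Sdhd (-1.19 ± 0.13) of complex II, and Uqcr11 (-1.56 ± 0.10) and Uqcrb (-1.25 ± 0.08) of complex III were furthest from 0 in their complexes. Atp5g1, 1 of 3 genes for the same c-ring subunit, led complex V with -1.02 ± 0.08. The gene called higher was Ndufs4 (0.34), an accessory subunit of complex I, and Ndufs1, Uqcrh, Uqcrc2 and Ndufb4b were not called.

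Against MPNST-like cells, the set was lower in T/NK-like cells by about as much as the genes tested as a whole. Its summed CPM was lower in T/NK-like cells of each of the 7 tumors. By edgeR, 45 of 80 genes were lower and 9 higher, beside 44.8% lower and 29.4% higher among all 14259 genes, and the median of -0.38 stood next to -0.35 for all genes. Complex I had 26 of 37 genes lower, led by Ndufc1 (-2.08 ± 0.12), which ran at 226 to 293 CPM in MPNST-like cells and 47.6 to 92.2 in T/NK-like cells, and by Ndufa5 (-1.49 ± 0.11). In the same complex 4 genes were called higher. Ndufs6 went against the main direction, with 38.7, 59.8 and 67.3 CPM in T/NK-like cells, all above the MPNST-like range, and a log2 value of 1.31. Within complex II the subunits separated, since Sdhc was lower (-1.27 ± 0.16) while Sdha (0.20 ± 0.15), Sdhb (-0.08 ± 0.12) and Sdhd (-0.01 ± 0.18) did not pass the test. T/NK-like samples held 549979 to 1280448 UMIs, so rare isoforms rest on few molecules there. Cox6b2 had 9 UMIs in 5 tumors (1.62 CPM) and Cox7a1 8 UMIs in 6 tumors (1.44 CPM), above the 0.54 CPM that a count of 0 allows, while Cox6a2, Cox7b2 and Ndufa4l2 had 1 UMI each.

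Levels of tissue-restricted isoforms differed between the classes. Ndufa4l2, which is closely related to Ndufa4 and is induced by hypoxia-inducible factor (HIF), made up 93.7% to 96.3% of the sum of the pair in pericyte-like cells of 4 tumors and 53.9% to 69.6% in fibroblast-like cells of 3. In MPNST-like cells it was 0.228% to 6.42% and in macrophage-like cells at most 0.628%. Ndufa4l2 stood at 518, 661, 971 and 946 CPM in pericyte-like cells of irradiated 1 and controls 1, 2 and 3. In the same samples Ndufa4 stood at 35.1, 32.1, 37.1 and 49.3. The pericyte marker list summed to 9670 CPM in pericyte-like cells and to 36.7 to 91.3 in fibroblast-like cells. Cox4i2, an oxygen-regulated isoform outside the rule, showed a related pattern, with 301 to 489 CPM in pericyte-like cells and at most 0.69 in MPNST-like cells. With 20 to 35 pericyte-like cells in each of these 4 tumors, the shares rest on 113951 to 249515 UMIs per tumor.

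Macrophage-like cells contained 3 complex IV isoforms that tumor cells nearly lacked. Cox6a2, the heart and skeletal muscle form, had 2.23, 3.70 and 5.6 CPM (lowest, median, highest tumor) in macrophage-like cells and 0.04, 0.05 and 0.13 in MPNST-like cells. Cox6b2, known as the testis form, had 2.76, 4.52 and 7.51 against at most 0.04, which is 455 UMIs in all macrophage-like cells and 7 in all MPNST-like cells. Cox7a1, another muscle form, had 5.26, 6.70 and 11.1 against 0.28, 0.73 and 1.21. None of these ranges overlapped, and the edgeR log2 fold changes were 6.12 ± 0.20, 8.34 ± 0.26 and 3.92 ± 0.16 (n = 7). These isoforms nonetheless remained minor parts of their pairs or sets, at 1.4% to 4.32% for Cox6a2, 0.737% to 2.23% for Cox6b2 and 2.09% to 4.48% for Cox7a1 in macrophage-like cells. Muscle markers (Acta1, Ckm, Tnnt3, Mylpf, Myh4) summed to 1.67 to 4.15 CPM there, and the part of that RNA was not tested. The same markers summed to 4.11 to 7.00 in MPNST-like cells. Neither Cox6b2 nor Cox7a1 was limited to macrophages. Cox6b2 reached 4.35% to 8.7% in pericyte-like cells, up to 5.94% in endothelial-like and up to 4.55% in fibroblast-like cells, and Cox7a1 reached up to 6.67% in pericyte-like cells, on 16, 18, 11 and 8 UMIs in all. In dendritic-like cells Cox6b2 made up 0% to 2.22% and Cox7a1 1% to 2.33% of their sets, on 6 and 3 UMIs in all. Cox6a2 had 2 UMIs in dendritic-like, 1 in endothelial-like, and 0 in fibroblast-like and in pericyte-like cells. Counts this small do not settle whether Cox6a2 was limited to macrophages among these classes.

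The opposite pattern held for Cox7b2, with 411 UMIs in MPNST-like cells of 6 tumors (0 to 2.36 CPM) and 0 among 94687528 UMIs of macrophage-like cells, which allows up to 0.0317 CPM for counting error only. The 3 c-ring genes stood in similar proportions in MPNST-like and macrophage-like cells, where Atp5g2 supplied 53.4% and 53.5% of the trio in the median tumor and Atp5g1 30.6% and 27.8%. In T/NK-like cells Atp5g1 supplied less, 20.3% to 24.6% across tumors, below every value in MPNST-like cells (26.9% to 31.1%) and macrophage-like cells (25.1% to 31.4%), and the median share of Atp5g2 was 58.9%.

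**Figure D3:**
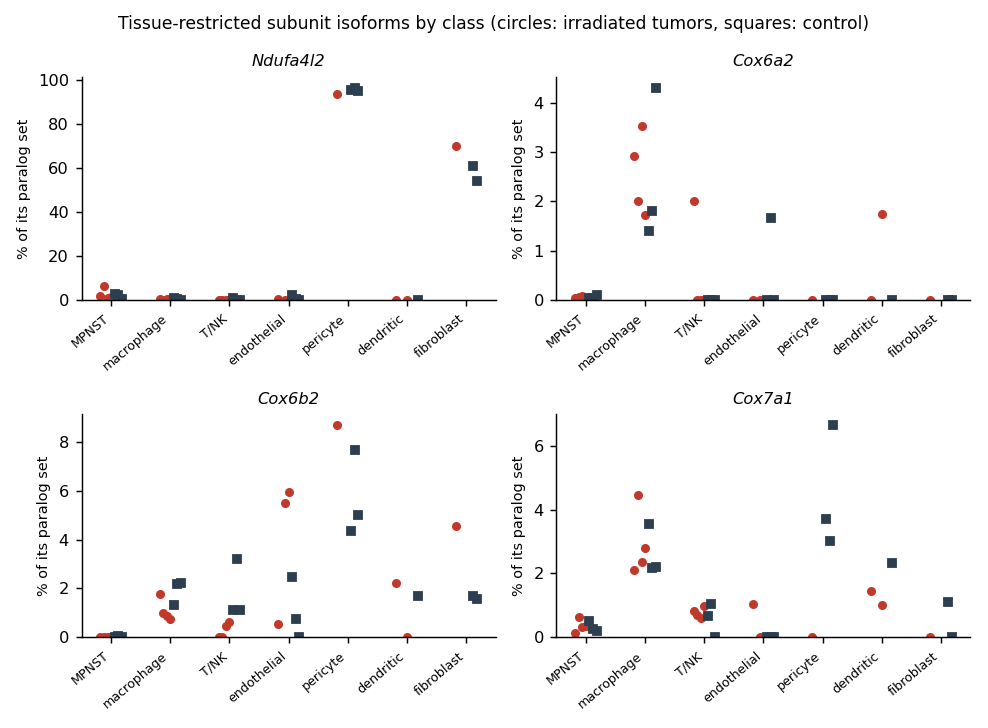
Share (%) of 4 restricted isoforms in the summed UMIs of their paralog sets by class, with 1 point per tumor holding at least 20 cells (circles irradiated, squares control) and a separate linear axis from 0 in each panel. Ndufa4l2 is above 93% in the pericyte-like samples, while Cox6a2 in macrophage-like samples lies between 1.4% and 4.32%.

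Promoter sequence is shown for isoforms that differed in this way, beside the widely used Cox6a1, and for Atp5k, whose level separated the same tumors in several classes. RefSeq entries (GRCm38.p6, the mm10 build) matched 70 of the 86 genes. Windows were the 250 bases before each transcription start and were searched on both strands for GCGCA joined to its reverse complement (a motif of the factor NRF1), CGGAAGT (ETS family) and CCAAT. NRF1 sites are a classical feature of respiratory genes. The NRF1 motif was found in 4 of 75 windows of the set (5.33%; Atp5g2, Atp5k, Cox6a1, Ndufa11) and in 0.777% of all 32817 windows. The ETS motif was searched first with a further C before it, which occurred in 3 windows (4%) against 2.88%, and the shorter form, adopted after that count was known, occurred in 8 windows (10.7%) against 4.91%. CCAAT occurred in 31 windows (41.3%) against 33.8%. A match describes the letters only. Capitals mark the NRF1 motif in the first pair and CCAAT, read as ATTGG on the strand shown, in the other two:
Cox6a1 (chr5:115348959-115349208, minus strand): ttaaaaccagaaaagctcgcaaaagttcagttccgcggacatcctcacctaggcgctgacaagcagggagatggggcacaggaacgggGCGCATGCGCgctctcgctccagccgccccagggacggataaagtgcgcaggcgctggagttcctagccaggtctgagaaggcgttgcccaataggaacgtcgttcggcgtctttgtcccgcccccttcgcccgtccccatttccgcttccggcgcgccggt
Atp5k (chr5:108434400-108434649, minus strand): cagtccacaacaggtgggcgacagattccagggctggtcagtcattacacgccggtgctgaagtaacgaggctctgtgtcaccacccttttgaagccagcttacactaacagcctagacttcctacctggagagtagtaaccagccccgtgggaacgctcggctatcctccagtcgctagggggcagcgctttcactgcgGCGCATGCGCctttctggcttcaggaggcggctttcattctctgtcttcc
Cox7a1 (chr7:30183921-30184170, plus strand): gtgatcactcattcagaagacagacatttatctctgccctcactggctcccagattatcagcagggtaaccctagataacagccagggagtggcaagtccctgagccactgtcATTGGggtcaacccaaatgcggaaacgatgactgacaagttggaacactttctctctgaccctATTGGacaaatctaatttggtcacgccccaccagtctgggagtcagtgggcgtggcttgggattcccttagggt
Cox6b2 (chr7:4753095-4753344, minus strand): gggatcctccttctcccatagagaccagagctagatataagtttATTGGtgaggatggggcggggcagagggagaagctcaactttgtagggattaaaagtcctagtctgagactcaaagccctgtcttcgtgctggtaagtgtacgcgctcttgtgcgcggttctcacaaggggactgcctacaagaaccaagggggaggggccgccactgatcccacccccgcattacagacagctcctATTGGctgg

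Ndufa4 was lower in macrophage-like than in MPNST-like cells (log2 -0.36 ± 0.10) although 12 other complex IV genes were higher. In macrophage-like cells its level was 292, 141, 172 and 111 in irradiated tumors 1 to 4 and 161, 312 and 312 CPM in controls 1 to 3. The paralog AA467197 (also called Nmes1, known to take the place of Ndufa4 in complex IV) was examined after these values were seen, and stood at 11.8, 66.4, 63.3 and 187 in the irradiated tumors and 65.6, 33.6 and 12.3 in the controls. Both genes separated the technical sets without overlap, since Ndufa4 was higher and AA467197 lower in irradiated 1 and controls 2 and 3 than in the other 4 tumors, so the set and the levels cannot be told apart between tumors. Within each tumor, macrophage-like cells with at least 1 UMI of AA467197 had a lower Ndufa4 CPM than those without it, in 7 of 7 tumors, with a mean log2 difference of -0.56 ± 0.08 (SD; exact two-sided permutation p = 0.0156, the smallest that 7 pairs allow). Since the gene was picked with its values in view, this p is not independent evidence. Summed UMIs of the other complex IV genes differed by 0.10 ± 0.10. Cells with the UMI were deeper, with a median of 7184 to 13937 UMIs against 4055 to 11757 without it, and the part of that depth was not tested.

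**Figure D4:**
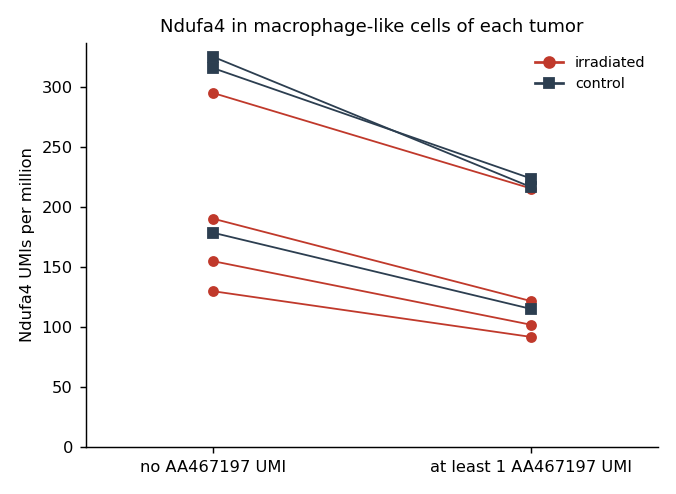
Ndufa4 CPM (linear axis from 0) in macrophage-like cells without and with at least 1 UMI of AA467197, with 1 line per tumor (circles irradiated, squares control). Every line falls from left to right, and irradiated 1 with controls 2 and 3, which form one technical set, lie above the other 4 tumors on both sides.

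Among MPNST-like cells, those with most cell-cycle transcripts had the highest OXPHOS levels. The states were the top and bottom 25% of each tumor's MPNST-like cells by a list of 10 cycling genes that holds no OXPHOS gene. The bottom state kept every cell tied at 0, giving 3603 cycling and 6260 non-cycling cells. The 86 genes summed to 15386, 17712 and 18290 CPM in cycling cells (lowest, median, highest tumor) and to 6812, 9706 and 11730 in non-cycling cells, and these ranges did not overlap. By edgeR's quasi-likelihood test 78 of 81 genes were higher and 1 lower, where 37.6% of all 14608 genes were higher and 38.6% lower. The median log2 fold change was 1.01 against -0.03 over all genes, and 41 genes were higher by at least 1 on the log2 scale, beside 12.9% of all genes. Scaling by total UMIs gave 74 higher and a median of 0.88 against -0.16 over all genes.

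Every tested gene of complexes I, II, III and V was higher in cycling cells. Ndufb8 had 45.7 to 105 CPM in non-cycling cells and 139 to 244 in cycling cells (log2 1.59 ± 0.06), and Ndufa5 followed in complex I with 1.33 ± 0.07. In complex II, Sdhd (1.24 ± 0.06) and Sdhb (1.19 ± 0.06) differed more than the catalytic flavoprotein Sdha (0.27 ± 0.05), with Sdhc between them (0.74 ± 0.05). Uqcrb (1.32 ± 0.09) and Uqcrq (1.31 ± 0.06) led complex III, and Atp5o (1.5 ± 0.06) and Atp5b (1.38 ± 0.06), the catalytic beta subunit, led complex V. In complex IV, Cox5a rose from 45.0 to 143 CPM in non-cycling cells to 182 to 354 in cycling cells (1.79 ± 0.07), and Ndufa4 from 107 to 336 up to 383 to 753 (1.67 ± 0.08). Cox7a2l, a relative of Cox7a2 linked to supercomplexes of the chain, differed by 0.25 ± 0.07, and Ndufs4 by 0.22. Ndufa4l2 was the gene called lower (-1.93 ± 0.39), and Cox7b2 (-0.33 ± 0.64) and Cox7a1 (0.42 ± 0.26) were not called.

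Cycling cells were also deeper, with a median of 19919 to 40189 UMIs per cell against 11389 to 22951. When states were cut within 10 bins of each tumor's cells by total UMIs, a choice made after seeing the data, 71 of 79 genes were higher and 2 lower, and the median fell to 0.53. Calls and the median over all genes at that cut are not given here, so the set is not set against them. Cox7a2l changed sign there (-0.15). Transcripts related to the same organelle did not move as one. Of 13 mitochondrially encoded subunits, 0 were higher and 8 lower, with a median of -0.23. The nuclear genes Cycs (cytochrome c, 2.47) and Cyc1 (1.73), both outside the rule, were higher. Of 44 assembly factors tested, 33 were higher and 3 lower, and of 13 citric acid cycle genes 12 were higher and 0 lower. Of 12 biogenesis regulators tested, 9 were higher and 2 lower, with a median of 0.37. The coactivator Ppargc1a was among the lower ones (-1.52).

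MPNST-like cells with high HIF target levels had slightly lower OXPHOS transcripts. The top and bottom 25% by 11 HIF targets held 3603 cells each. Ranges of the summed set overlapped, at 9489, 11890 and 12773 CPM in HIF-target-high cells and 12341, 13945 and 16154 in HIF-target-low cells (lowest, median, highest tumor). With the tumor as a block, edgeR called 63 of 80 genes lower and 2 higher, where 15.4% of all 13809 genes were lower and 11.5% higher, and the median was -0.26 against 0.00. Without the block, 12 were lower and 1 higher. Ndufa4 (-0.63 ± 0.06), Cox5a (-0.62), Ndufs8 (-0.51 ± 0.06), Uqcrq (-0.51 ± 0.06) and Atp5g1 (-0.44 ± 0.05) were the most negative of complexes IV, I, III and V, with Sdhb at -0.44 ± 0.08 in complex II.

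The 2 genes called higher in HIF-target-high cells were Ndufv3 (0.29), an accessory subunit of complex I, and Ndufa4l2. Ndufa4l2 had 21.8, 51.4, 7.32 and 11.0 CPM in HIF-target-high cells of irradiated tumors 1 to 4 and 18.1, 26.0 and 2.33 in controls 1 to 3. The corresponding HIF-target-low values were 1.59, 2.26, 1.12 and 0.35, and 0.73, 1.83 and 1.76. Ndufa4l2 was higher in the HIF-target-high state of each tumor, although control 3 differed little, and its log2 fold change was 3.52 ± 0.44 (edgeR adjusted p = 0.00094). Its share of the pair with Ndufa4 was 0.592% to 26.9% in the high state and 0.126% to 0.769% in the low state. HIF-target-high cells also had less of the cycling list, 8 of 10 genes being lower (Birc5 -1.13), and the part of that difference in the OXPHOS values was not tested. With states cut within 10 bins of UMIs per cell, 57 genes were lower and 2 higher, with a median of -0.20. The values over all genes at that cut are not given here either.

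**Figure D5:**
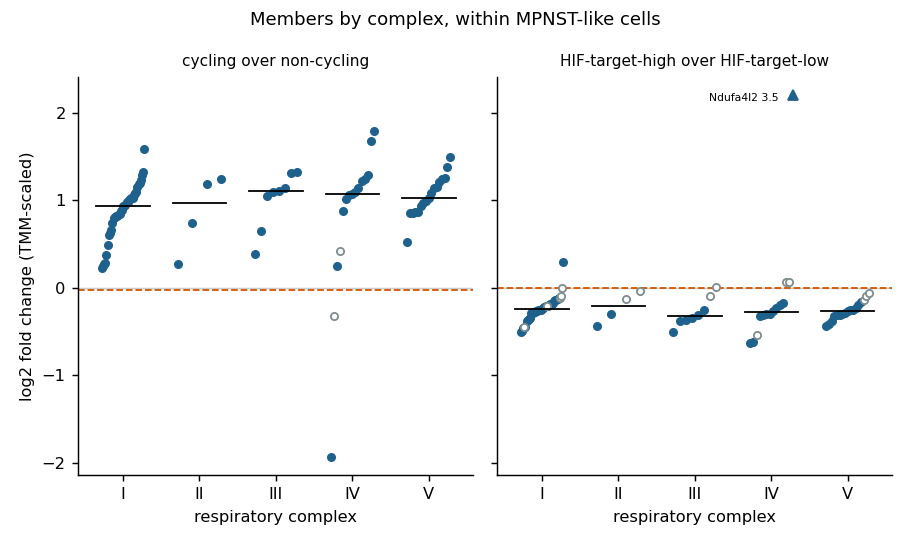
Log2 fold changes (TMM scaling) of the genes tested in each complex between states of MPNST-like cells, marked as filled (adjusted p below 0.05) or open points, with black bars at complex medians and a dashed line at the median of all genes. Cycling cells show a median of 1.01 over the set, whereas HIF-target-high cells show -0.26 with Ndufa4l2 at 3.52.

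The study's own comparison asked how tumor and host cells differ after irradiation. No gene of the set was called between irradiated and control tumors in any of the 3 main classes. In MPNST-like cells the summed level was 13946, 12319, 13586 and 11512 CPM in irradiated tumors 1 to 4 and 12628, 13786 and 14924 in controls 1 to 3, so the groups overlapped. The means were 12841 ± 1128 (SD, n = 4) and 13780 ± 1148 (n = 3), a log2 difference of -0.10, which was -0.04 and -0.02 within the technical sets. By edgeR, 0 of 81 genes passed adjustment or an unadjusted p of 0.05, beside 0 of 17269 genes called (percent called 0) and 1.27% with an unadjusted p below 0.05. DESeq2 called 2 genes overall and none of the set. Fitted changes were positive for only 3 of the 81, beside 45.7% of all genes, with a median of -0.15 against -0.02 over all genes. With the technical set as a term, 29 were positive and the median was -0.03. Leaving out control 3 gave 31 and -0.03. Leaving out control 1 gave 15 of 81 genes with an unadjusted edgeR p below 0.05, beside 920 of all 17456 genes tested. The median of the set was then -0.24, against 0.02 over all genes.

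In macrophage-like cells, summed levels were 14162 in irradiated and 14266 in control tumors. Of 81 genes 0 were called, beside 1 of 12791 genes overall (0.00782%), and Cox6b2 alone had an unadjusted p below 0.05, beside 5.84% of all genes. Cox6b2 had 5.62, 3.53, 3.10 and 2.76 CPM in irradiated tumors 1 to 4 and 4.52, 6.82 and 7.51 in controls 1 to 3. The groups overlapped through irradiated 1 and control 1, and the log2 change was -0.77 (edgeR adjusted p = 0.823). Within the technical sets the log2 ratio of mean CPM, with 1 CPM added to each mean, was -0.30 and -0.42. The added 1 CPM pulls ratios of low levels toward 0, so these values are not on the scale of the edgeR change. Irradiated and control values did not overlap for Uqcrc2 and Cox6c, as for 5.64% of all genes tested.

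In T/NK-like cells, 0 of 76 genes were called, beside 0 of 7542 overall (percent called 0), and Ndufs1 and Sdha had an unadjusted p below 0.05, beside 5.62% of all genes. Ndufs1 had 20.1, 50.3, 36.1 and 32.0 CPM in irradiated tumors 1 to 4 and 17.3, 23.5 and 14.6 in controls 1 to 3 (log2 0.85, edgeR adjusted p = 0.842), with irradiated 1 inside the control range. Within the technical sets the log2 ratio of mean Ndufs1 CPM, with 1 CPM added to each mean, was 0.07 and 1.14. Sdha had 81.7, 61.1, 84.5 and 51.5 against 44.6, 60.4 and 32.7 (log2 0.53, edgeR adjusted p = 0.875). The groups did not overlap for Atp5g2, Atp5o and Atp5a1, a property of 6.54% of all genes. A test of whether the irradiation effect differed between classes called none of the genes in any pair of classes, beside 0 or 1 of all genes (percent called 0 for both pairs with MPNST-like cells and 0.00835 for T/NK-like against macrophage-like cells). Ndufs1, Ndufb5 and Sdha had unadjusted p values below 0.05 in both contrasts with T/NK-like cells, 3 of 81 and 3 of 80 genes, beside 4.9% and 5.13% of all genes. Between macrophage-like and MPNST-like cells 0 of 82 genes had one, beside 5.48% of all genes.

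Mitochondrially encoded subunits, outside the rule, were compared between the groups as well. In T/NK-like cells all 12 tested had lower fitted values in irradiated tumors with an unadjusted edgeR p below 0.05, beside 5.62% of all genes. None was called (smallest edgeR adjusted p = 0.423, for mt-Nd3). These transcripts come from 1 genome, so they do not count as 12 independent results. The summed level was 20787 ± 3487 (SD, n = 4) against 30947 ± 8518 (n = 3). The log2 difference of that sum was -0.55, and -0.33 and -0.45 within the technical sets. In macrophage-like cells the sum was 25630 ± 7845 against 34682 ± 6770, a log2 difference of -0.47, which was -0.03 in the set of irradiated 1 with controls 2 and 3 and -0.40 in the other. In MPNST-like cells it was 45493 ± 3053 against 44402 ± 8277, a log2 difference of 0.05, which was 0.12 and -0.19 within the sets.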

How the data were processed

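Cell-by-gene UMI counts were deposited by the authors for each of 7 tumors, 4 irradiated and 3 control, which name Cell Ranger 8.0.0 in their headers, aligned to mm10, and Seurat 4.4 is named in the submitters' processing notes. The deposited counts are raw, so depth differs between cells. Cells beyond 3 median absolute deviations in UMIs, genes, mitochondrial or ribosomal share were removed separately per library. Classes required a minimum number of fixed markers (6 for macrophage-like, 3 or 4 for the others). Each tumor's counts were added up over the cells of a class, given at least 20 cells, and tested with edgeR 4.0.16 (filterByExpr, TMM, robust quasi-likelihood, Benjamini-Hochberg over all genes, 0.05), with the tumor as a block between classes and states. The tumor was the replicate, taken from the labels as a biological replicate. DESeq2 1.42.0 served as an alternative. In simulated counts, where a log2 change of 2 was given to 200 genes per comparison, the test recovered 82.5% to 97% of them, and 3.48% to 10.3% of its calls were false, above 5% in 5 of 8 comparisons and highest for irradiated against control MPNST-like cells. The recovery holds for changes of that size and says nothing about smaller ones, such as the fitted irradiation changes of the set. CPM (UMIs per 1000000) are relative to the total UMIs of the class and, since libraries are 3′ tagged, carry no length correction. Promoter windows came from RefSeq.

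The text names, per comparison, the 2 genes with the largest change in each complex at a mean of at least 10 CPM, all genes of the paralog sets, the Sdh genes and, by group, genes with an unadjusted p below 0.05. Others called against the main direction, or not called, were named after their values were seen. The rule for the OXPHOS genes reads symbols only, but the choice of this gene group, like that of the marker and companion lists, was made with earlier results of these data known. Libraries were split into 2 technical sets by cell number, UMIs and genes per cell, the best of 63 possible splits (within-set share of the spread 0.396, next best 0.422), so the split is derived from the data and is not a stated batch. Intervals and limits from counts cover counting error only.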

Additional observations from a re-analysis of the deposited data

Results flagged for a closer look

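In groups of 4 irradiated tumors, 84 values of named genes and sums were screened for a tumor far from the other 3, by Dixon's ratio of the gap to the range, which chance exceeds in about 1 of 20 groups, and 2 were above it. Atp5g2 in macrophage-like cells was 482.0 CPM in irradiated 3, with the other 3 irradiated tumors between 460.1 and 461.4 (ratio 0.941). The gap is small in size, and control 3 was higher, at 489. Atp5k in T/NK-like cells was 168.4 CPM in irradiated 2, with the others between 81.7 and 88.2 (ratio 0.925). The cause of either value was not tested.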

How the results depend on the processing

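Counts of calls were recomputed 333 times over the comparisons and alternatives (DESeq2, scaling by total UMIs, no low-count filter, no cell filter, a stricter gate, the block added or removed, other cuts between states, the technical set as a term, or 1 tumor left out), and 309 stayed within 1.5 times of the reported count. Values of named genes kept direction and side of the threshold in 2390 of 2525 recomputations, and changed sign in 82. For irradiated against control, genes called, of all genes tested, were 2 in MPNST-like cells with DESeq2. In macrophage-like cells they were 6 with DESeq2, 2 with no low-count filter, 0 with no cell filter, 0 with a replicate block, and 0 to 13 with 1 tumor left out, 13 being without irradiated 1. In T/NK-like cells they were 106 with no low-count filter, 1 with the technical set as a term, and 0 to 7 with 1 tumor left out, 7 being without irradiated 1. With scaling by total UMIs, genes of the set called between macrophage-like and MPNST-like cells became 37 higher and 19 lower, and 3 were higher in T/NK-like than in macrophage-like cells, a count that was 0 with no low-count filter and 1 to 2 with 1 tumor left out (2 without control 2). Genes of the set called lower in cycling cells were 2 with states cut within 10 bins of UMIs per cell. In the HIF-target comparison without the block, 530 genes were called in all, 1 of the set higher and 12 lower. Ndufa4 between macrophage-like and MPNST-like cells was -0.34 without the block (edgeR adjusted p = 0.279). The cause of these shifts was not tested.

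Replicate numbers of the labels did not pair the tumors, since same-numbered irradiated and control tumors had correlated deviations of -0.43 to 0.12, so the block by replicate number is given here only, and it called 0 genes of the set in each group comparison. Log2 changes by irradiation close to 0 turned sign as follows. In MPNST-like cells, with the technical set as a term, Atp5g3 became 0.024, Sdhb 0.081, Cox6a1 0.043, Cox6b1 0.029, Sdhd 0.10, Cox5a 0.042, Atp5g1 0.056, Uqcrfs1 0.027, Sdha 0.0075 and Cox8a 0.012. With the replicate block, Sdhb became 0.046, Cox6a1 0.0035 and Sdhd 0.092. With scaling by total UMIs, Sdhb became 0.081, Cox6a1 0.033 and Cox7a1 0.0049. Sdhb was also 0.0056 with DESeq2, 0.016 with no low-count filter and 0.0026 with no cell filter. In macrophage-like cells, Cox7a1 became -0.14 and Cox7a2 -0.0035 with the technical set as a term, and Cox7a2 -0.035 and Atp5g1 -0.013 with the replicate block. In T/NK-like cells, Atp5k became -0.0020 and Cox6a1 -0.14 with the technical set, Cox6a1 -0.031 and Cox7a2 -0.045 with the replicate block, and Cox8a 0.015 with scaling by total UMIs and 0.0030 with no low-count filter. Between classes, scaling by total UMIs gave -0.028 for Sdhc, -0.014 for Atp5g1 and -0.38 for Cox7b in macrophage-like against MPNST-like cells, and Sdhd in T/NK-like against MPNST-like cells became 0.061 with no cell filter and 0.037 with a stricter gate. Between states, Cox7a2l became -0.15 and Atp5g2 0.0041 with states cut within 10 bins of UMIs per cell, in the cycling and the HIF-target comparison, and Cox7b2 became -0.018 in the latter with no cell filter and -0.016 without the block.

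With 1 tumor left out, the ranges that crossed 0 in MPNST-like cells were -0.16 to 0.026 for Atp5g3, -0.083 to 0.13 for Sdhb, -0.11 to 0.025 for Cox6a1, -0.42 to 0.28 for Cox7a1, -0.26 to 0.09 for Cox6b1, -0.24 to 0.23 for Sdhd, -0.49 to 0.92 for Ndufa4l2, -0.33 to 0.025 for Atp5g1, -0.52 to 0.037 for Uqcrfs1, -0.56 to 0.032 for Atp5g2 and -0.35 to 0.057 for Cox8a. In macrophage-like cells they were -0.054 to 0.47 for Cox7a1, -0.091 to 0.72 for Cox6a2, -0.039 to 0.078 for Cox7a2, -0.015 to 0.12 for Atp5g1 and -0.067 to 0.0045 for Cox8a. In T/NK-like cells they were -0.42 to 0.026 for Sdhc, -0.075 to 0.74 for Atp5k, -0.11 to 0.19 for Cox6a1, -0.52 to 0.031 for Sdhd, -0.054 to 0.16 for Cox7a2, -0.11 to 0.053 for Cox8a and -0.19 to 0.053 for Cox7b. Elsewhere they were -0.14 to 0.097 for Sdhd in T/NK-like against MPNST-like cells, -0.87 to 0.29 for Cox7b2 between cycling states and -0.27 to 0.52 for Cox7b2 between HIF-target states. Depth limits the rare isoforms in T/NK-like samples, which held at most 1280448 UMIs each.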

Other observations

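Atp5k, the small e subunit of complex V, was highest in the same 2 tumors in each of the 3 main classes. In MPNST-like cells irradiated 2 and control 1 had 169 and 187 CPM and the other 5 tumors 97.3 to 113. In macrophage-like cells they had 201 and 208 against 107 to 131, and in T/NK-like cells 168 and 130 against 55.3 to 88.2. These tumors belong to different treatment groups, and the tumor line and the host classes moved alike. Of 6208 genes with a mean of at least 10 CPM in all 3 classes, 3 had both of these tumors more than 1.3 times above every other tumor in all 3 classes, namely Atp5k, Pet100 (a complex IV assembly factor) and Rps29 (a ribosomal protein). The pattern was noticed in these values and then counted in them, and its cause was not tested.

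Companion genes outside the rule separated between classes as well. Ppargc1a, the mitochondrial biogenesis coactivator, had 2.74 to 17.1 CPM in MPNST-like cells and 0.08 to 0.78 in macrophage-like cells (edgeR log2 -3.92), while Esrra, an orphan nuclear receptor that acts with it, was higher in macrophage-like cells (1.1). Of 13 mitochondrially encoded subunits, 12 were lower and 0 higher in T/NK-like than in MPNST-like cells, with a median of -0.79 against -0.35 for all genes. Of 44 assembly factors tested, 19 were higher and 17 lower in macrophage-like than in MPNST-like cells, with a median of -0.02, where the subunits had 0.60.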
